A study of Papio hamadryas with 14 samples.

Results

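Creatine carries high-energy phosphate in cells with a large and changing demand for ATP. Glycine amidinotransferase (GATM) joins a group from arginine to glycine to give guanidinoacetate, and guanidinoacetate methyltransferase (GAMT) methylates this product to creatine. In mammals the kidney is known as a main site of the first step, which lies in the proximal tubule, while the liver carries much of the second. Creatine kinases then move phosphate between ATP and creatine: CKB is the brain-type cytosolic enzyme, CKM the muscle-type cytosolic enzyme, and CKMT2 the sarcomeric mitochondrial enzyme of heart and skeletal muscle.

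These 5 genes, GATM, GAMT, CKB, CKM and CKMT2, out of 9580 with a probe set assigned to 1 gene symbol, were followed through kidney development in a baboon, Papio hamadryas. They were selected on their place in creatine metabolism and with measured signals of these same arrays already known, among them the large GATM difference between 160dG and 60dG. Their levels over the stages are therefore given as a description. All probe sets carrying 1 of the 5 symbols were taken, which gave 2 for GATM and 1 for each of the others, 6 of the 16186 probe sets in each table. Sequences of the probes, transcripts or proteins were not used here.

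Whole kidneys were taken from fetuses and adults, with no treatment, strain or genotype named. The fetal stages are 60dG, that is 60 days of gestation, with 2 arrays, and 90dG, 125dG and 160dG with 3 apiece. The 3 adult arrays come from animals aged 6, 12 and 7 years (replicates 1, 2 and 3), and the fetal replicates are described as biological. Human Affymetrix arrays were used for this baboon RNA, so a probe that differs from the baboon transcript can read low. The 11 fetal arrays are of 1 type and the 3 adult arrays of another, in a separately normalized table, so array type and adulthood cannot be told apart and adult values were compared without a test.

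All values are the authors' probe set signals on a linear scale unless log2 is named, and signals of different genes are not set against each other, since probes differ in brightness. The array median was 210.2 to 214.4 on adult and 172.9 to 194.6 on fetal arrays. Kidney markers were present, with unequal courses: the 8 measured proximal tubule markers summed to 17682.7 to 19257.4 in adults and 1772.2 to 2394 at 60dG, and the nephron progenitor markers to 258.9 to 315.9 in adults and 1078 to 1171.5 at 60dG. The podocyte markers summed to 587 to 854.9 in adults and 1466.7 to 1575.7 at 60dG, with NPHS1 at 27.2 to 33.7 in adults, below the array median. The collecting duct markers summed to 550.3 to 712.1 in adults and 410.4 to 476.4 at 60dG. The GAPDH control probe sets, whose 3' over 5' signal is a sign of RNA quality, gave ratios of 2.46 and 3.43 in 90dG replicates 2 and 3, against 1.57 to 2.11 on the other 12 arrays. Adult replicate 3 stood apart by skeletal muscle transcripts, and the results that rest on it are given with and without it.

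GATM, the gene of the first step, had a higher mean signal at each later fetal stage. Its brighter fetal probe set, 203178_at, read 306.7 and 223.7 at 60dG, 957.8, 1832.1 and 471.8 at 90dG, 2707.2, 1509.4 and 1729.1 at 125dG, and 4322.6, 1331.0 and 4849.2 at 160dG. All 3 arrays at 90dG lay above both arrays at 60dG, whereas 90dG overlapped 125dG and 125dG overlapped 160dG. The share of all genes free of overlap between fetal stages, or between adult and all fetal arrays, was not counted. Overlap is therefore given, here and below, only as a description of a few arrays. The lowest value at 90dG came from replicate 3, the array with the highest GAPDH ratio, and the lowest at 160dG from replicate 2. The highest value at 90dG came from replicate 2, whose GAPDH ratio of 2.46 was the next highest.

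The stage means of 203178_at were 265 ± 58.7 (SD, n = 2) at 60dG, 1087 ± 689 at 90dG, 1982 ± 638 at 125dG and 3501 ± 1898 at 160dG (SD, n = 3 each). On the log2(signal + 16) scale, 160dG exceeded 60dG by 3.46 ± 0.53 (SE of the limma fit). The steps were 1.78 ± 0.53 for 90dG over 60dG, 1.02 ± 0.48 for 125dG over 90dG and 0.66 ± 0.48 for 160dG over 125dG. Leaving out 160dG replicate 2 gave 1.25 for the last step, and leaving out 160dG replicate 3 gave 0.32. The difference of 125dG over 90dG likewise moved to 0.53 with 90dG replicate 3 left out and to 1.49 with 90dG replicate 2 left out. In the order of the stages only 60dG stood clear of its neighbour on every array, and that step was not called in limma with all arrays and was called in 5 of 20 alternatives.

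The other GATM probe set, 216733_s_at, gave the same order of stage means on the fetal arrays. It read 304.2 and 326.2 at 60dG, 1039.1, 1178.3 and 400.3 at 90dG, 1963.3, 2328.6 and 2385.6 at 125dG, and 2766.3, 1778.9 and 3713.2 at 160dG. Here 60dG, 90dG and 125dG were separated with no overlap, and 125dG and 160dG overlapped. The log2 difference of 160dG over 125dG was 0.25 ± 0.33 (SE), and 0.00065 with 160dG replicate 3 left out. The log2 difference between 160dG and 60dG was 3.00 ± 0.37 (SE), against 3.46 for 203178_at. Among the 1349 genes with 2 or more probe sets above the filter, the median spread between probe sets in this comparison was 0.27, and that of GATM was 0.45.

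**Figure D1:**
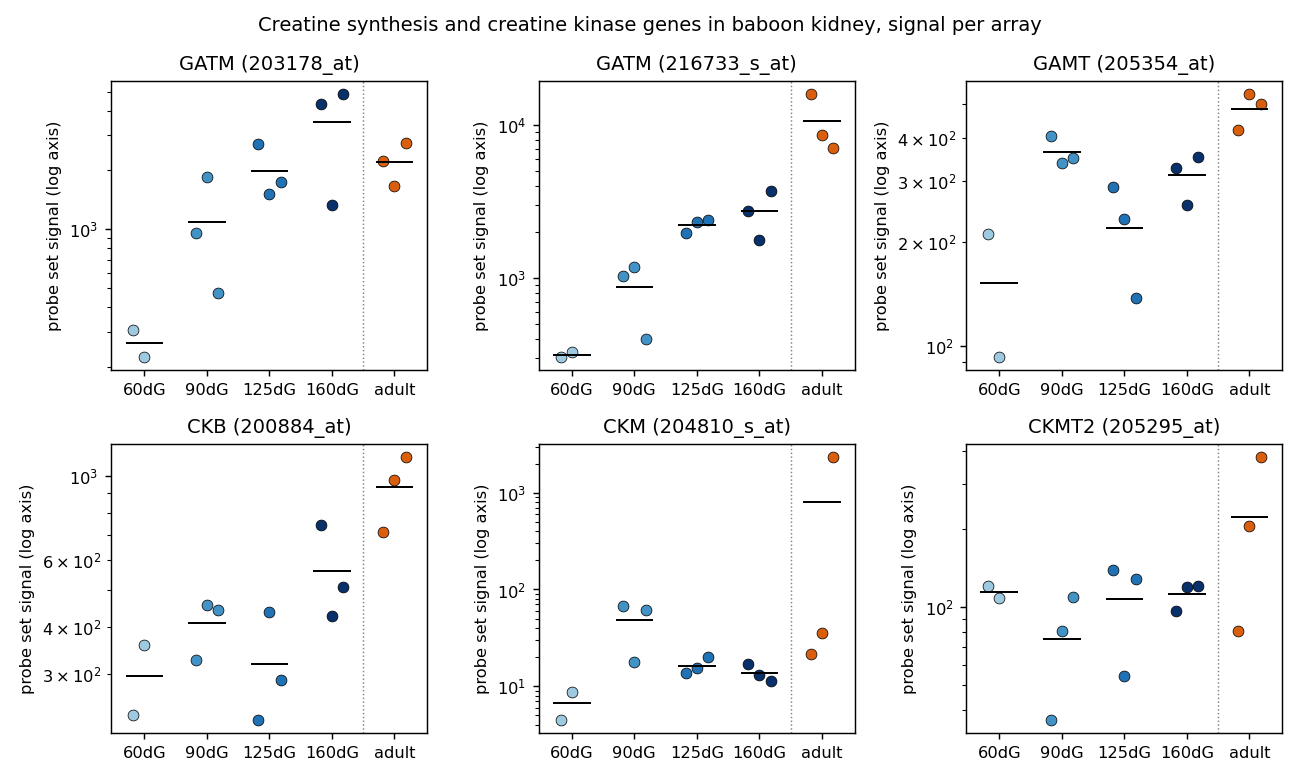
Signal of each of the 6 probe sets (log axis) on every array by stage; each point is 1 array, placed left to right by replicate number, and the black line is the stage mean. Fetal GATM signals lie lowest at 60dG on both probe sets, and CKM is at or below 67.1 on every array except adult replicate 3, at 2347.8.

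In adult kidney the GATM probe sets disagreed. Probe set 203178_at read 2218.9, 1658.7 and 2724.3 in adults, within the 1331.0 to 4849.2 of 160dG, a log2 difference of -0.49 for adult minus 160dG (-1.08 with 160dG replicate 2 left out, -0.15 with 160dG replicate 3 left out). Probe set 216733_s_at read 16023.6, 8720.0 and 7142.6 in adults, all above the 1778.9 to 3713.2 of 160dG, a log2 difference of 1.92. The signal ratio of 216733_s_at to 203178_at was 2.62 to 7.22 on the adult arrays and 0.64 to 1.54 on the fetal arrays. The size of such a ratio has no meaning of its own, but its adult and fetal ranges did not overlap. Of the 1349 genes with several probe sets, 40 (2.97%) had probe sets that differed at least as much in adult minus 160dG as the 2.41 of GATM, and the median was 0.67. Whether adult GATM lay above or within the late fetal range thus depended on the probe set.

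**Figure D2:**
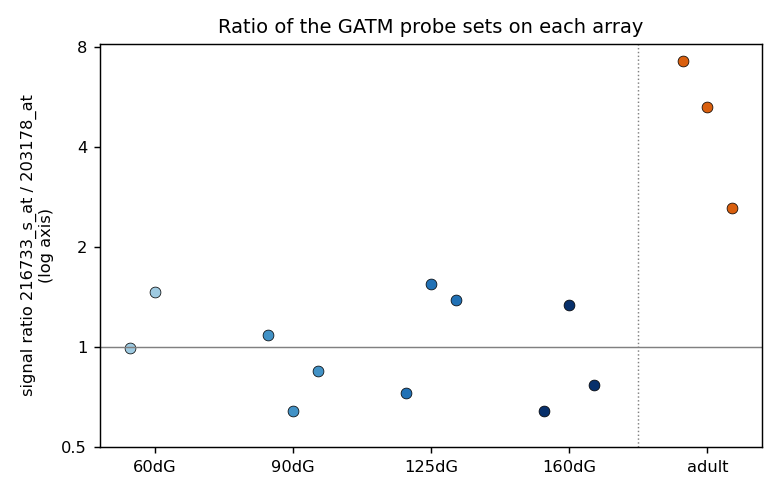
Signal of GATM probe set 216733_s_at divided by that of 203178_at (log axis) on each array by stage, 1 point per array. The 3 adult arrays lie between 2.62 and 7.22 and the 11 fetal arrays between 0.64 and 1.54.

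The summed proximal tubule markers moved with GATM over part of the range, and their part in the GATM difference was not tested. The summed signal of the 8 measured markers (of 11 listed) was 1772.2 to 2394 at 60dG, 6026.3 to 7416.2 at 90dG, 6669.6 to 7172.9 at 125dG, 5686.7 to 11683.2 at 160dG and 17682.7 to 19257.4 in adults. Like GATM it was lowest at 60dG, and at 160dG both were lowest in replicate 2 (sum 5686.7) and highest in replicate 3 (sum 11683.2). The other stages were less alike. At 90dG both were lowest in replicate 3, but the sum was highest in replicate 1 and GATM in replicate 2. At 125dG the sum was highest in replicate 1 (7172.9), where 203178_at was highest (2707.2) and 216733_s_at lowest (1963.3). The sum is weighted to its brightest markers, and single markers took unlike courses. AQP1 read 259.4 to 299.6 at 60dG and 5679.3 to 7552.4 in adults, whereas CUBN read 116.5 to 264 and 119.9 to 474.8. PCK1 read 392.3 to 587.4 at 90dG and 218 to 250.5 at 125dG. From 90dG to 125dG they parted, since the sums at 125dG lay within the range of those at 90dG. The GATM mean at 125dG was 1.82 times that at 90dG on 203178_at and 2.55 times on 216733_s_at. Between these stages the arrays overlapped on 203178_at and did not on 216733_s_at. In whole kidney RNA, fewer cells of a type and less RNA per cell cannot be told apart.

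**Figure D3:**
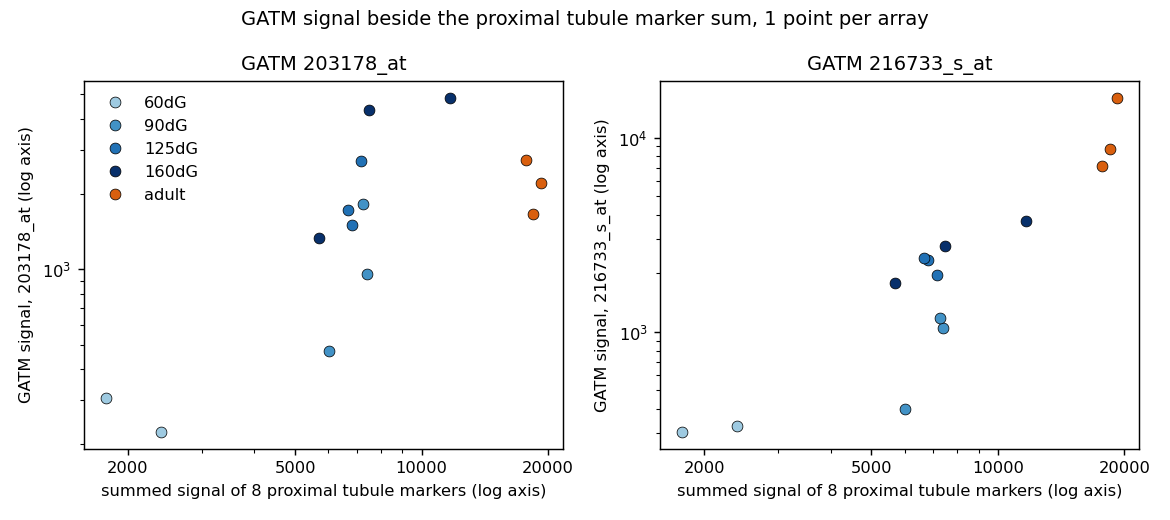
Signal of GATM (log axis) against the summed signal of 8 proximal tubule markers (log axis), 1 point per array, coloured by stage, for 203178_at on the left and 216733_s_at on the right. The 60dG arrays are lowest on both axes, and the adult arrays have the highest sums but stand above all fetal arrays in GATM only for 216733_s_at.

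GAMT, the gene of the second step, had no such ordered course. Its probe set 205354_at read 210.6 and 92.9 at 60dG, 404.2, 338.1 and 349.2 at 90dG, 288.7, 233.0 and 138.1 at 125dG, 327.2, 255.6 and 353.2 at 160dG, and 421.3, 535.2 and 501.2 in adults. The order of the stage means was 60dG (152 ± 83.2, SD, n = 2), 125dG (220 ± 76.1), 160dG (312.0 ± 50.5), 90dG (364 ± 35.4) and adult (486 ± 58.5; SD, n = 3 each). Each of the fetal neighbours in that order overlapped, and the adult arrays lay above all 11 fetal arrays.

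The GAMT log2 differences were 1.27 ± 0.33 (SE) for 90dG over 60dG, -0.74 ± 0.29 for 125dG over 90dG, 0.52 ± 0.29 for 160dG over 125dG and 1.05 ± 0.33 for 160dG over 60dG. The last value became 1.58 when 60dG replicate 1 was left out and 0.52 when 60dG replicate 2 was, so that single arrays of the smallest group set its size. With 60dG replicate 2 left out, 90dG exceeded 60dG by 0.74 and was not called. With 125dG replicate 3 left out, the difference was -0.46 for 125dG over 90dG and 0.24 for 160dG over 125dG. Adult exceeded 160dG by 0.62. All 3 arrays at 90dG lay above all arrays at 60dG and at 125dG, the highest being replicate 1, whose GAPDH ratio was 1.78.

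CKB, the cytosolic kinase of brain and many epithelia, was brightest in adults. Its probe set 200884_at read 233.6 and 358.5 at 60dG, 325.6, 456.4 and 441.6 at 90dG, 226.8, 438.0 and 289.0 at 125dG, 744.4, 427.3 and 508.5 at 160dG, and 712.4, 977.5 and 1123.5 in adults. The order of the means, low to high, was 60dG, 125dG, 90dG, 160dG and adult, with overlap between each pair of neighbours. The adult and 160dG arrays overlapped by the 160dG replicate 1 value alone. The log2 difference was 0.88 ± 0.30 (SE) for 160dG over 60dG and 0.80 ± 0.27 for 160dG over 125dG, and adult exceeded 160dG by 0.74. The first of these became 0.58 with 60dG replicate 1 left out.

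In rat kidney CKB is known from the distal nephron, including the thick ascending limb. The 4 measured markers of loop of Henle and distal tubule (of 6 listed) summed to 1587.6 to 1690.3 at 60dG, 1285.6 to 1656.7 at 90dG, 1712.6 to 2580.4 at 125dG, 3304.6 to 4977.7 at 160dG and 4130.9 to 5093 in adults. Both CKB and this sum had their highest fetal mean at 160dG. From 90dG to 125dG they parted, since the sum was higher at 125dG on every array while CKB differed by -0.38 ± 0.27 (SE, log2). The markers did not go one way into adulthood: SLC12A1, the cotransporter of the thick ascending limb, read 474 to 706.9 in adults and 1370.8 to 2470.6 at 160dG, whereas CALB1, of the distal tubule, read 2497.1 to 3416.7 in adults and 1072 to 1757.5 at 160dG. The part of these segments in the CKB signal was not tested.

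CKM, the muscle kinase, was near the floor of the arrays in every fetal kidney. Its probe set 204810_s_at read 4.5 and 8.8 at 60dG, 67.1, 17.7 and 62.0 at 90dG, 13.6, 15.3 and 20.1 at 125dG, and 17.1, 13.1 and 11.3 at 160dG, where the array medians were 172.9 to 194.6. On average 1.83% of probe sets read lower at 60dG, 15.9% at 90dG, 5.41% at 125dG and 4.52% at 160dG. At such signals the differences between stages depend on the pseudocount: 90dG over 60dG was 1.42 on the log2(signal + 16) scale, 2.55 with a pseudocount of 1 and 0.65 with 64.

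In adult kidney CKM read 2347.8 in replicate 3, against 35.2 and 21.5 in replicates 2 and 1. The adult minus 160dG log2 difference was 2.48 with all adult arrays and 0.56 without adult replicate 3. CKMT2, its mitochondrial counterpart of striated muscle, read 380.4 on the same array, against 206.5 and 81.2 in adult replicates 2 and 1. For CKMT2 adult exceeded 160dG by 0.68 with all adult arrays and by 0.20 without adult replicate 3.

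Adult replicate 3 also carried high signals of skeletal muscle genes. The 11 measured skeletal muscle markers (of 15 listed) summed to 21982.5 in adult replicate 3, against 1134.4 and 976.0 in adult replicates 2 and 1 and 389.2 to 752.3 on the fetal arrays. Of these markers, 8 lay above the array median in adult replicate 3, 1 in adult replicate 2 and 0 on each of the other 12 arrays. The skeletal actin ACTA1 read 3448.1 in adult replicate 3, against 70.3 and 16.1 in replicates 2 and 1, and the fast troponin C TNNC2 read 5893.4, against 147.9 and 162.4.

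Ranked by log2 excess in adult replicate 3 over the mean of the other adult arrays, CKM came at place 2 of 16143 probe sets, between ACTA1 at place 1 and the myosin light chain MYL1 at place 3, with TNNC2, TNNI2 and MYH1 at places 4, 5 and 6. CKMT2 came at place 242. The myosins of developing muscle came far lower in that order. The embryonic MYH3 read 16.9 in adult replicate 3, against 7.0 and 7.7 in replicates 2 and 1, and the perinatal MYH8 read 105.3, against 126.8 and 75.4. GATM 203178_at and CKB, at places 2385 and 2945, were 1.41 and 1.33 times the mean of the other adults there, and GAMT 1.05 times. GATM 216733_s_at went the other way, with its lowest adult signal in replicate 3 (7142.6, against 8720.0 and 16023.6 in replicates 2 and 1), 0.577 times their mean.

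**Figure D4:**
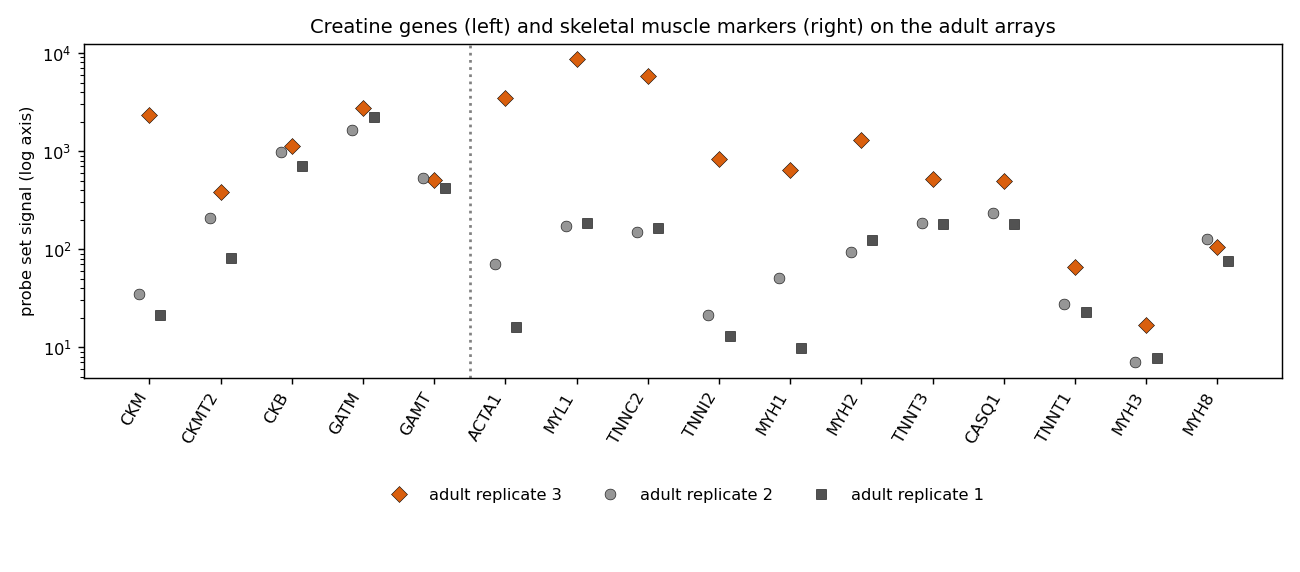
Signals (log axis) of the 5 creatine genes, left of the dotted line, and of 11 skeletal muscle markers, right of it, on the 3 adult arrays; diamonds are replicate 3, circles replicate 2 and squares replicate 1. CKM and most muscle markers are far higher in replicate 3, while for CKB, GAMT and GATM 203178_at, the GATM probe set drawn, replicate 3 is 1.05 to 1.41 times the mean of the others.

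CKMT2 was dim in fetal kidney as well, without an order of stages. Its probe set 205295_at read 120.6 and 108.2 at 60dG, 36.8, 80.7 and 109.5 at 90dG, 139.7, 54.2 and 128.4 at 125dG, and 97.0, 119.6 and 121.2 at 160dG. All these stages overlapped, and 160dG differed from 60dG by -0.02 ± 0.44 (SE) on the log2 scale. The value at 90dG replicate 1 was the lowest of the 11 fetal arrays.

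Read against all genes, 3 of the 5 members (GATM, GAMT and CKB) passed the filter on low signal and entered the fit of 5278 genes over the 11 fetal arrays, while CKM and CKMT2 did not. Called means a Benjamini-Hochberg adjusted p under 0.05 in limma. Over the 4 fetal stages GATM and GAMT were called, beside 18.2% of all tested genes. Between 160dG and 60dG GATM was called (background 11.6%), and between 90dG and 60dG GAMT (background 9.11%). No tested member was called in limma for 125dG against 90dG (background 5.17%) or 160dG against 125dG (background 0.322%), with 1 of 3 at an unadjusted p under 0.05 in each. Since these values were known when the genes were chosen, nothing is read from the counts. For adult against 160dG, where a log2 difference of 1 or more without overlap was counted in place of a test, 17.7% of tested genes and none of the 3 members met the rule. The second GATM probe set, which was not the one counted, did meet it. All adult differences are beside a median over the tested genes of -0.13.

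The median log2 difference of the 3 tested members between 160dG and 60dG was 1.05, which is the GAMT value, and that of all tested genes -0.01. The GATM difference in this comparison was known when the members were chosen, so nothing is read from these medians. The 3 tested members had also passed a filter on mean signal, so a gene bright at some stages entered more easily.

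Genes with the fetal course most like that of each member were taken as those of highest Pearson r of log2 signal over the 11 fetal arrays, among all tested genes and with no p. They share arrays and stages, and nothing follows on function. For GATM 203178_at they were QTMAN (r = 0.97), RETREG1 (0.96) and ACAT1, the mitochondrial acetoacetyl-CoA thiolase (0.96), and for 216733_s_at the NADPH oxidase NOX4 (0.95), B2M, the light chain of MHC class I (0.95), and CDC37L1 (0.95). The GATM probe sets thus had no gene in common among their nearest 3. For GAMT they were the ADP/ATP carrier SLC25A5 (0.90), KEAP1 (0.88) and the succinate dehydrogenase subunit SDHA (0.88), and for CKB they were GPR27 (0.89), the aldehyde dehydrogenase ALDH2 (0.88) and NFS1 (0.85). For the dim probe sets they were SCAMP3 (0.94), GSS (0.91) and NPEPL1 (0.91) for CKM, and RBMS1 (0.90), RINT1 (0.87) and LPP (0.85) for CKMT2.

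Creatine enters cells through the transporter SLC6A8, which has 3 probe sets of its own symbol. The probe set tested, 210854_x_at, averaged 625 ± 203 at 160dG and 371 ± 51.3 at 60dG (SD, n = 3 and 2). That log2 difference of 0.68 ± 0.34 was not called (limma, adjusted p = 0.228). Over the 4 fetal stages the probe set was not called either (limma, adjusted p = 0.152). The other SLC6A8 probe sets differed by 0.86 (202219_at) and 0.02 (213843_x_at) between 160dG and 60dG, so they gave no common size. The name ending _x_at marks possible sharing with other transcripts. The other genes listed with it, SLC16A12, CKMT1A and CKMT1B, had no probe set of 1 symbol.

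Around GATM stand the genes that supply, move or use its substrates arginine and glycine, a list of 25 genes of which 20 had a probe set and 12 were tested. Of these 12, 8 were called over the stages (background 18.2%), and 7 were higher and 0 lower at 160dG than at 60dG (background 11.6%; limma, adjusted p under 0.05). The median log2 difference between 160dG and 60dG was 1.06 over the 12, against -0.01 over all tested genes. This list was drawn up with earlier results of these arrays known.

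ASS1, argininosuccinate synthase of arginine synthesis, averaged 1513 ± 584 at 160dG and 429 ± 2.40 at 60dG (SD, n = 3 and 2). The log2 difference was 1.69 ± 0.30 (SE), with an adjusted p of 0.00235 in limma. Its mean was 1576 at 90dG and 1393 at 125dG, so the difference was present by 90dG. ASL, which completes arginine synthesis, rose by 0.93 ± 0.23 (adjusted p = 0.0161). SLC3A1 and SLC7A9, the subunits of the brush border carrier of cystine and dibasic amino acids such as arginine, rose by 1.90 ± 0.47 and 1.20 ± 0.24 (limma, adjusted p = 0.0171 and 0.00481). The SLC3A1 mean was higher at each later stage, with 233 at 60dG, 375 at 90dG, 696 at 125dG and 1003 at 160dG. That of SLC7A9 was 279 at 60dG, 556 at 90dG and 674 at 160dG. ASS1, ASL, SLC3A1 and SLC7A9, like GATM, are known from the proximal tubule, whose marker sums are given above.

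DDAH1, which breaks down methylated arginines, rose by 1.67 ± 0.32 (limma, adjusted p = 0.00372), whereas DDAH2 differed by -0.16 ± 0.23. GLYAT, which conjugates glycine to acyl groups, rose by 1.44 ± 0.30 and PRODH2, of hydroxyproline breakdown, by 1.33 ± 0.22. Much of each difference was present by 90dG. At 60dG, 90dG and 160dG GLYAT averaged 243, 532 and 652, and PRODH2 240, 510 and 640. DDAH1 averaged 369, 1000 and 1219 at those stages, with 761 at 125dG. Of the glycine cleavage genes tested, AMT differed by 0.58 ± 0.19 and GCSH by 0.15 ± 0.20, and neither was called. Leaving out either 60dG array ended the call of SLC3A1 and of DDAH1 over the stages, as did leaving out 60dG replicate 1 for GLYAT and 160dG replicate 1 or 3 for SLC3A1. The number of list genes called over the stages, 8 with all arrays, became 1 when 60dG replicate 1 was left out, 4 when 60dG replicate 2 was, and 5 when 160dG replicate 1 was.

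For the methyl group that GAMT adds, which comes from S-adenosylmethionine, 1 of 8 tested genes (of 16 listed) was called over the stages (background 18.2%), a share that does not exceed that of all tested genes. Between 160dG and 60dG 1 of 8 was called (background 11.6%). There 4 of 8 had an unadjusted p under 0.05 in limma, beside 1319 of the 5278 tested genes. The median log2 difference between 160dG and 60dG was 0.45, against -0.01 over all tested genes. The called gene was BHMT2, a methyltransferase that makes methionine. It rose to 326 ± 107 at 160dG, against 74.5 ± 47.0 at 60dG (SD, n = 3 and 2; 1.97 ± 0.34; limma, adjusted p = 0.00201). Whether BHMT2 was tested at all depended on the filter on low signal. It was not among the tested genes with a pseudocount of 1 or with the stricter filter. Nor was it tested when 90dG replicate 2, replicate 3 or both were left out, or any single array at 125dG or 160dG. With 60dG replicate 1 left out, BHMT2 was not called over the stages (limma, adjusted p = 0.0572). The related BHMT and the transsulfuration enzyme CTH both differed by 1.08 and were not called. MAT2A and AHCY, which make S-adenosylmethionine and clear its product, differed by -0.09 ± 0.19 and -0.27 ± 0.24.

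Among genes of other phosphate transfer, namely adenylate, adenosine and nucleoside diphosphate kinases and the mitochondrial ADP/ATP carriers and VDAC pores, 2 of 8 tested (of 16 listed) were called over the stages, against a background of 18.2%, and 0 of 8 between 160dG and 60dG in limma (4 of 8 at an unadjusted p under 0.05), against a background of 11.6%. Both counts of called genes are near the background. The nucleoside diphosphate kinase NME1 averaged 459 ± 42.1 at 160dG and 756.5 ± 138 at 60dG (SD, n = 3 and 2), a log2 difference of -0.69 ± 0.22. Over the stages it was called with an adjusted p of 0.0199 in limma, and no longer once 90dG replicate 2 was left out (limma, adjusted p = 0.0548). NME4, the mitochondrial one, was highest at 90dG (637 ± 6.33, SD, n = 3) and averaged 345 ± 27.8 at 160dG and 371 ± 74.7 at 60dG. The median over the list was -0.08, against -0.01 over all tested genes.

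**Figure D5:**
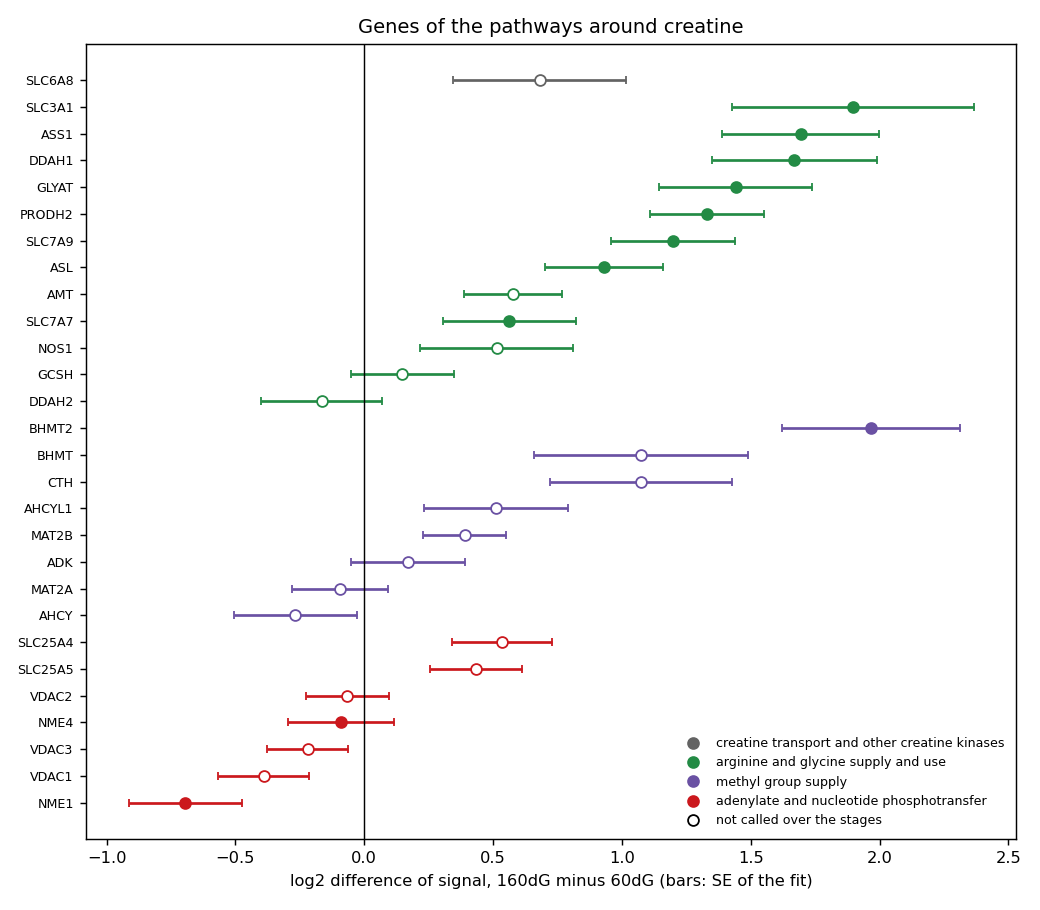
Log2 difference between 160dG and 60dG for the tested genes of the 4 lists around creatine (horizontal axis; bars are the SE of the limma fit); filled points were called over the 4 fetal stages. The 7 largest differences of the arginine and glycine list, SLC3A1 to ASL, lie between 0.93 and 1.90, while the phosphate transfer genes lie between -0.69 and 0.53.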

How the data were processed

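Total RNA from whole kidney was turned into biotin-labelled cRNA, per the labels' protocols. The values are probe set intensities on a linear scale, deposited by the authors and made with GCOS, per the submitters' processing notes; its version, the algorithm and any scaling target were not given in the sources used here. The 2% trimmed means of the 14 arrays were 330 to 352, so the values were used without rescaling. Symbols came from the platform annotation: 14068 of 16186 probe sets had 1, 735 several, and 1340 besides 43 controls none, and only the first kind was named. Each of 9580 genes was represented by its brightest probe set over the fetal arrays. The scale is log2(signal + 16), which understates changes of dim genes, and genes above the median of all probe sets (a signal of 178) were tested, 5278 in all. Array number limits the precision.

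The 11 fetal arrays were fitted with limma 3.58.1 in R 4.3.3 (lmFit; eBayes with an intensity trend), with Benjamini-Hochberg adjustment over all tested genes. Differences of GATM 216733_s_at, CKM, CKMT2 and the further SLC6A8 probe sets come from the same fit without the filter. On simulated data with 200 changed genes among 5278, it recovered 66.5% of 2-fold and 97% of 4-fold changes between 160dG and 60dG. Of the genes called there, 1.48% and 5.83% were unchanged ones. Over the 4 stages it recovered 68.5% and 97%, and 8.67% and 6.73% of the called genes were unchanged ones. The simulated noise was independent between arrays, so differences in array quality were not simulated.

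The members and all lists were chosen with earlier results of these data known. Named besides the members and SLC6A8 were, by rule, up to 4 genes a list with the largest difference between 160dG and 60dG among those called over the stages, and the 3 genes most like each member; other list genes and the muscle markers were named after their values were seen. The ranks in adult replicate 3, the comparison of probe sets within genes and the 90dG arrays' GAPDH ratios were added as descriptions. Alternatives were pseudocounts 1 and 64, no filter or the 0.75 quantile, quantile normalization, no trend, all probe sets, the replicate number as a block, and leaving out each array or 90dG replicates 2 and 3. Of 15 pairs of same-numbered arrays, 2 had deviations from their stage means correlated above 0.1. The mean correlation was 0.0086 for same-numbered and -0.0044 for other pairs. With 2 or 3 arrays a stage these deviations are tied to each other, so whether the replicate numbers pair the arrays cannot be settled. Figures were drawn with matplotlib 3.10.9.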

Additional observations from a re-analysis of the deposited data

How the results depend on the processing

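Over 20 alternatives GATM was called over the stages and between 160dG and 60dG in each, while GAMT, tested in 19, was called over the stages in 9. Its call between 90dG and 60dG held in 14 of the 19. The GATM difference between 160dG and 60dG ranged from 3.12 to 4.05 for 203178_at and from 2.76 to 3.28 for 216733_s_at. Counts of called genes moved more. Leaving out single arrays gave 535 (without 60dG replicate 1) to 1064 genes over the stages, 250 (60dG replicate 1) to 691 between 160dG and 60dG, 83 (60dG replicate 1) to 576 between 90dG and 60dG, 34 (125dG replicate 3) to 441 (90dG replicate 1) between 125dG and 90dG, and 0 to 22 between 160dG and 125dG. The 0 came from limma without 125dG replicate 1, with 367 genes at an unadjusted p under 0.05. In the pathway lists together 11 genes were called over the stages, and 3 (60dG replicate 1) to 13 with an array left out. Without 90dG replicates 2 and 3 these counts were 545, 100 (90dG against 60dG), 37 (125dG against 90dG), 9 (160dG against 125dG) and 7 (lists). For 125dG against 90dG, 171 were called with no filter, 155 with no trend and 461 with all probe sets. For 160dG against 125dG, 6 were called at the 0.75 quantile, 7 with no trend and 5 with the replicate block, against 17. With the replicate block GAMT was also called between 160dG and 60dG; it lost no member call. NME4 between 160dG and 60dG ranged from -0.29 (60dG replicate 1 left out) to 0.11 (60dG replicate 2 left out), against -0.09 with all arrays. With 1 array left at 60dG, its spread is taken from the other stages. The cause of these shifts was not tested.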
